A study of Mus musculus with 6 samples.

Results

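The histone genes of the mouse were examined in ATAC-seq peak lists from inguinal white preadipocytes. They were chosen by symbol alone, as all protein-coding genes whose GENCODE M21 symbol begins with Hist1h, Hist2h, Hist3h or Hist4h, together with H1f0, H1fx, H2afx, H2afz, H2afy, H3f3a and H3f3b. This gave 74 of the 21755 protein-coding genes on chromosomes 1 to 19 and X. Of these, 8 encode linker histones and 66 encode core histones, and 67 carry cluster-type names of replication-dependent histones while 7 are variant genes. ATAC-seq marks open chromatin by the sites at which the transposase Tn5 can cut. The lists came from 3 libraries of wild type (WT) cells and 3 libraries of double knockout (DKO) cells, which are Hmgn1-/-Hmgn2-/- and lack the nucleosome-binding proteins HMGN1 and HMGN2. Both genotypes were on the C57BL/6 background, both losses are carried by every cell of the mouse rather than by fat cells alone, and the cells were taken from adult animals and harvested undifferentiated, at day 0. No source used here says that the libraries of a genotype came from separate animals, so the p-values below measure the spread between these libraries, which may be technical.

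Nucleosomes are built of DNA wound around an octamer of the core histones H2A, H2B, H3 and H4, and the linker histone H1 binds where the DNA enters and leaves. HMGN proteins bind the same nucleosomes and are known to compete with H1 for them, which makes the H1 genes of particular interest in cells without HMGN1 and HMGN2. Replication-dependent histone genes lie in clusters, have no introns in their coding sequence, are transcribed mainly in S phase, and give mRNAs that end in a conserved stem-loop instead of a poly(A) tail. Variant genes such as H3f3a and H2afz lie outside the clusters and are expressed through the cell cycle. The lists measure how open a promoter is, and give no level of histone mRNA or protein.

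To show what the linker promoters share, the 150 bases before the RefSeq start site are printed for the 6 replication-dependent H1 genes and for the variant H1f0, with the space before Hist1h2bk, the most open histone promoter, and Hist1h4f as an H4 example. Sequences are from RefSeq (GRCm38.p6), run 5′ to 3′ on the strand of the gene, and end 1 base before the start site. Capitals mark matches on either strand to the letters of 5 promoter motifs. These are TATAAA for the binding site of the TATA-binding protein, CCAAT for the site of the factor NF-Y, the letters AAACACA of the so-called H1 box, ATGCAAAT for the octamer site of the factor OCT1, and GGGCGG for the GC box of factors such as SP1, and no match printed here overlaps another.
Hist1h1a (chr13:23763518-23763667, forward strand): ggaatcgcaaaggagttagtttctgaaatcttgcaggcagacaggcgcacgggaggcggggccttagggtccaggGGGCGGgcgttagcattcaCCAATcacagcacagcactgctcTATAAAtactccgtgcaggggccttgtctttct
Hist1h1b (chr13:21780626-21780775, reverse strand): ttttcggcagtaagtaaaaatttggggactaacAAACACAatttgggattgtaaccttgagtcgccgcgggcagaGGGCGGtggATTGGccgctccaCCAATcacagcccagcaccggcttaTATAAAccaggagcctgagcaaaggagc
Hist1h1c (chr13:23738657-23738806, forward strand): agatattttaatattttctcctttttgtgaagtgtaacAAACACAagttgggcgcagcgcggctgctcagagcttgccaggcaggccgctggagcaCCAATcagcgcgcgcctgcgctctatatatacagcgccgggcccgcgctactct
Hist1h1d (chr13:23554882-23555031, forward strand): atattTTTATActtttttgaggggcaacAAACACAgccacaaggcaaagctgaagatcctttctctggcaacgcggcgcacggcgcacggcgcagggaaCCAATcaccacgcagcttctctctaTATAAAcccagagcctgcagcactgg
Hist1h1e (chr13:23622559-23622708, reverse strand): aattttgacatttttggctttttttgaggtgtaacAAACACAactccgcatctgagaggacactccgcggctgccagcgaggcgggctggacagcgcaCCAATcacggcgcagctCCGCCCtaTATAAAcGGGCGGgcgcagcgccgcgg
Hist1h1t (chr13:23695661-23695810, forward strand): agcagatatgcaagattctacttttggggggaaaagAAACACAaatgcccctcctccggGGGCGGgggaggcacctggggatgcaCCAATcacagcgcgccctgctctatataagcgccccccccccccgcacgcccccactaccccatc
H1f0 (chr15:79028062-79028211, forward strand): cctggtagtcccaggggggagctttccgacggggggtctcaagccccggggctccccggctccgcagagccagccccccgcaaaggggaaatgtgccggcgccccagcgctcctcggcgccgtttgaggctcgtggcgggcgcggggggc
Hist1h2bk (chr13:22035644-22035820, forward strand): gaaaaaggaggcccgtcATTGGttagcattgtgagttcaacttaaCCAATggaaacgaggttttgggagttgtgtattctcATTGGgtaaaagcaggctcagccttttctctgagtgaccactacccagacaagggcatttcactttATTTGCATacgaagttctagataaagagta
Hist1h4f (chr13:23551669-23551818, reverse strand): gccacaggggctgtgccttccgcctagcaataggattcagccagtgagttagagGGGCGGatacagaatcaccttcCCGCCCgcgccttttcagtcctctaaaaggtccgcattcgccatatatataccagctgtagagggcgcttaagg

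The CCAAT box stood at nearly the same place in the 5 somatic H1 promoters, with its first base 56, 53, 54, 51 and 52 bases before the start of Hist1h1a, Hist1h1b, Hist1h1c, Hist1h1d and Hist1h1e. The H1 box lay further out, at 117, 112, 122 and 115 bases before the start of Hist1h1b, Hist1h1c, Hist1h1d and Hist1h1e, and its letters were not found before Hist1h1a. Hist1h1t, the testis H1, held the H1 box at 114 and the CCAAT box at 65 bases before its start and had no listed summit in any library. H1f0 held none of the 5 motifs in the bases printed.

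RefSeq promoters from 250 bases before to 50 bases after the start were matched for 68 of the 74 genes and for 21263 protein-coding genes in all. No entry was matched for H2afx, Hist2h2be, Hist1h3f, Hist1h2bc, Hist1h3a and Hist2h4. CCAAT was present in 6 of 6 H1, 18 of 18 H2A, 16 of 16 H2B and 10 of 10 H3 promoters of the replication-dependent genes, but in 3 of 12 H4 promoters. Over all promoters its share was 38.2%. TATAAA was found in 52.9% of the histone promoters and in 12.6% of all promoters. The H1 box was held by 5 of 6 H1 promoters against 6.15% of all promoters, and by no replication-dependent H3 or H4 promoter. Its letters were also in 2 of 18 H2A and 2 of 16 H2B promoters and in that of H3f3a. The octamer was found in 7 H2A and 6 H2B promoters and in that of H3f3b, and in 1.66% of all promoters. The GC box was found in 9 of 12 H4 promoters and in 1 of 16 H2B promoters, against 46.2% of all promoters. Of the 12 H4 promoters, 7 held the GC box without CCAAT, 2 held both and 2 held neither. A match is only the presence of these letters in the window, and no binding was measured.

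**Figure D1:**
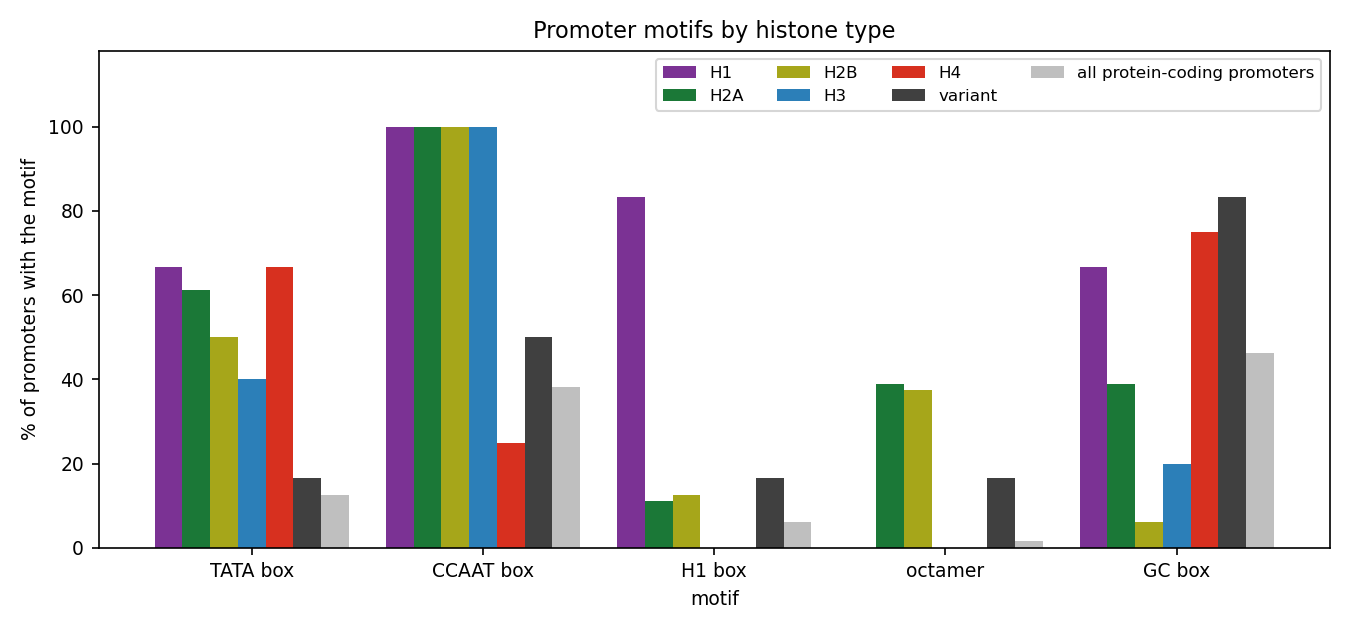
Share of RefSeq promoters (vertical axis, % of promoters) that hold each of 5 motifs (horizontal axis), with 1 bar for each replication-dependent histone type, the variant genes and all protein-coding promoters. The CCAAT bars of H1, H2A, H2B and H3 reach 100%, while that of H4 is at 25% and that of all promoters at 38.2%.

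The stem-loop that ends replication-dependent histone mRNAs was then read from the genome as a check of the class. The letters CTTTTCAG (capitals) with 4 pairing bases on each side were searched on the strand of the gene near the annotated gene end and after the stop codon, and 3 forms were found, in 38, 8 and 2 genes.
Form in 38 genes: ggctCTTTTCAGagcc
Form in 8 genes: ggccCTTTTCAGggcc
Form in 2 genes: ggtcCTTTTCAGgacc
These forms were present in 48 of 67 replication-dependent genes (71.6%) and in 0 of 7 variant genes. Searched at the annotated gene end alone, the forms were found in 36 of the 74 histone genes and in 40 of all 21755 protein-coding genes (0.184%). All 5 somatic H1 genes of the Hist1 cluster carried the most frequent form, which in Hist1h1b lay at chr13:21779837-21779852 on the reverse strand, 34 bases past the stop codon. Its absence from the testis gene Hist1h1t says only that these letters were not found in the window.

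Open chromatin was listed at nearly every histone gene of these cells. A summit within 1 kb of a start site was present in all 6 libraries for 67 genes, and in 69 or 70 genes of each single library. Between 180 and 205 listed summits lay near histone start sites per library. Hist3h2ba and Hist1h3h had a summit in 5 libraries and H1fx in 4. Hist1h1d, Hist1h1t, Hist1h2ba and Hist1h2aa had none, of which the last 3 are known for expression in the testis. A summit that is not listed lay under the limit of the list and need not be closed. The blank at Hist1h1d came from its annotation, since GENCODE M21 places its start at 23553262 on chromosome 13 and RefSeq at 23555032, a gap of 1770 bp. At the RefSeq start the highest fold enrichment was 6.06, 7.13 and 7.06 in WT and 5.26, 6.90 and 5.48 in DKO.

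The level of a promoter was taken as its highest fold enrichment within 1 kb of a start site, which is the pileup of cut sites at the summit divided by the background expected there in that library. The median over the histone genes was 12.8 ± 0.994 (SD, n = 3 libraries) in WT and 11.5 ± 0.987 in DKO, close to the median over all 14825 tested promoters of 11.7 ± 1.34 in WT and 10.96 ± 0.444 in DKO. The histone median was above that of all tested promoters in each of the 6 libraries. In WT, replication-dependent H2B genes were highest at 15.8 ± 1.62 and H2A genes followed at 14.8 ± 1.43, which overlapped. Many of these genes share their highest summit in H2A and H2B pairs, described below, so both medians rest partly on the same values. Replication-dependent H3 genes had a median of 10.2 ± 0.888 and H4 genes 9.22 ± 0.677, whose libraries also overlapped. In DKO the medians were 14.8 ± 0.710 for H2B, 14.7 ± 0.5996 for H2A, 8.83 ± 0.603 for H3 and 8.55 ± 0.624 for H4, so that H2A and H2B stood above H3 and H4 in both genotypes. For Hist1h3a, Hist1h3c, Hist1h3f and Hist2h3b the highest summit is shared with a neighbouring histone gene. At the summit nearest to the start, H3 and H4 had 6.38 ± 0.219 and 7.29 ± 0.588 in WT. In DKO they had 7.27 ± 0.806 and 5.69 ± 0.576.

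**Figure D2:**
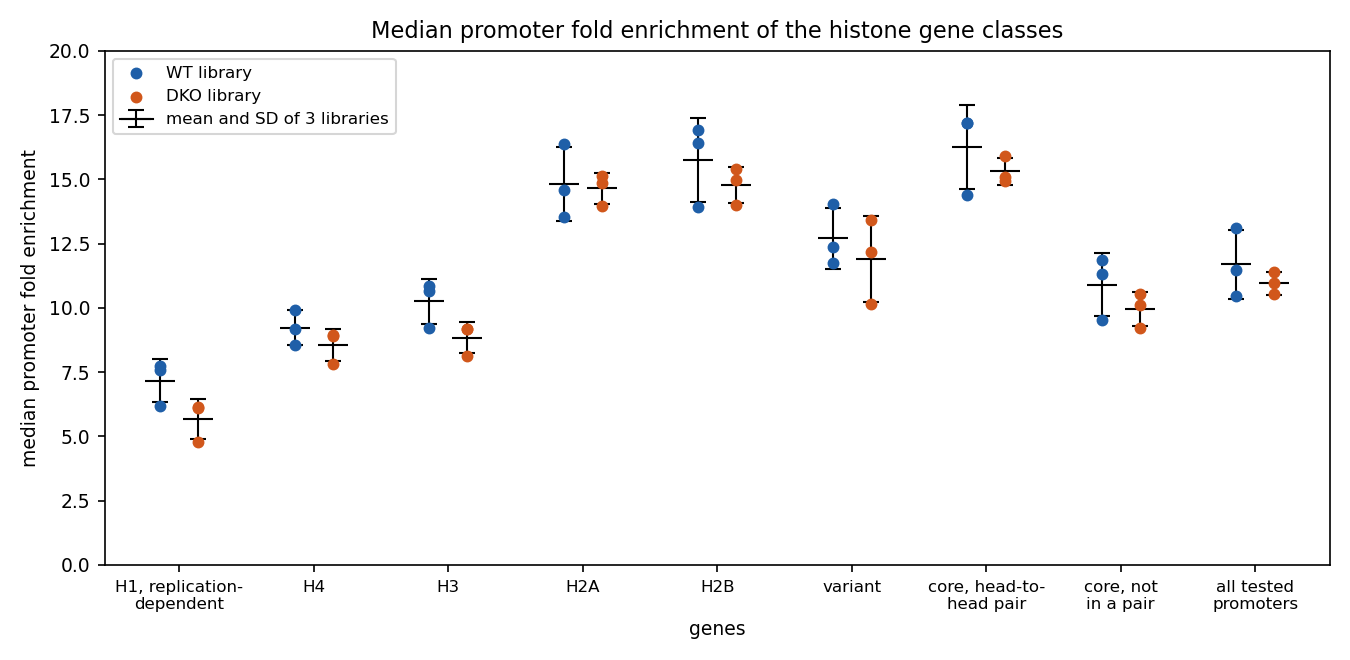
Median promoter fold enrichment (vertical axis, ratio to local background) of each histone class and of all tested promoters (horizontal axis), with 1 point per library and the mean and SD of 3 WT or 3 DKO libraries. The H1 medians lie lowest and the H2A and H2B medians highest in both genotypes.

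Linker genes were less open than core genes in every library. The median over the 8 linker genes was 6.31 ± 1.13 in WT and 5.22 ± 0.616 in DKO, against 13.7 ± 1.70 and 12.2 ± 0.561 over the 66 core genes. The log2 ratio of linker to core was -1.01, -1.25 and -1.11 in the WT libraries and -1.26, -1.12 and -1.32 in the DKO libraries, in order of replicate number. The ranges of the genotypes overlapped. These medians count a gene without a summit at the lowest value of its list, and over genes with a summit in all 6 libraries alone the ratio was -0.84 in WT and -0.90 in DKO. Replication-dependent and variant genes did not separate. Their medians were 12.7 ± 1.02 and 12.7 ± 1.184 in WT and 11.6 ± 0.954 and 11.9 ± 1.66 in DKO, and the log2 ratio was 0.0054 ± 0.13 in WT and -0.03 ± 0.18 in DKO. The 7 variant genes are few and ranged from H2afx at the top to H1fx at the bottom.

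Each gene's best summit was also ranked by its p within its own list. The median histone gene lay in the top 5.24% to 6.79% of a list and the median tested promoter in the top 9.49% to 10.8%, so that by p the histone genes ranked better in every library. The median H2A gene lay in the top 2.299% to 4.13% and the median linker gene in the top 23.1% to 35.6%. The summit before Hist1h2bk was within the top 0.353% in every library. Among the linker genes, Hist1h1e ranked best, in the top 1.78% to 4.88%, and Hist1h1c lay in the top 5.30% to 7.27%, both by a summit past the stop codon rather than at the start. Hist1h1a lay in the top 10.7% to 21.2%. Hist1h1b moved over a wider span, between 16.5% and 26.1% in WT and between 29.0% and 43.0% in DKO, which did not overlap.

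**Figure D3:**
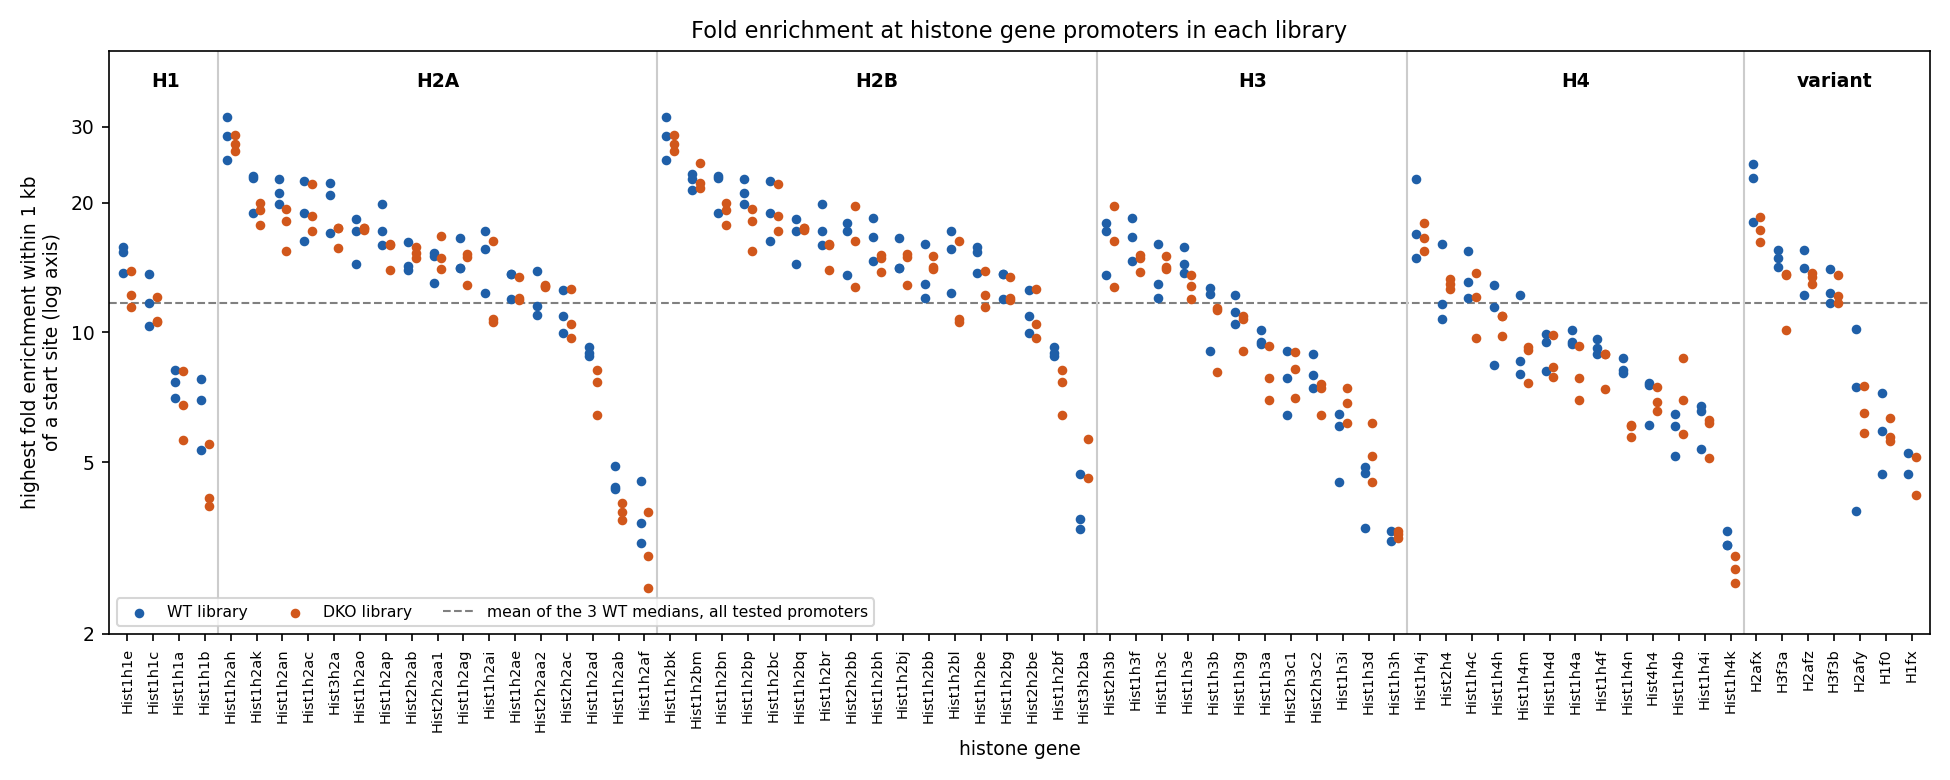
Highest fold enrichment within 1 kb of a start site (vertical axis, log scale) for each histone gene with a summit (horizontal axis), with 1 point per library coloured by genotype and a dashed line at the mean of the 3 WT medians over all tested promoters. WT and DKO points of a gene mostly lie on top of each other, and the Hist1h2ah and Hist1h2bk pair is the highest, between 25.1 and 31.7.

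Many core histone genes share a promoter with a divergent neighbour. The genes form 13 head-to-head pairs with start sites between 176 and 660 bp apart, of which 12 join an H2A to an H2B gene and 1 joins Hist1h2bh to Hist1h3f. In 12 of the pairs the highest summit was the same for both genes in all 6 libraries and a summit lay between the starts. The exception was Hist1h2ba with Hist1h2aa, both without a summit. Such a pair is a single measurement of a shared promoter, and the 70 histone genes with a tested promoter stood for 54 distinct promoters. Paired core genes had a median of 16.3 ± 1.63 in WT and 15.3 ± 0.527 in DKO, and unpaired core genes 10.9 ± 1.23 and 9.95 ± 0.668. The log2 ratio of paired to unpaired genes was 0.58 ± 0.04 in WT and 0.62 ± 0.11 in DKO, above 0 in 6 of 6 libraries. These groups differ in histone type, since all but 1 of the paired genes encode H2A or H2B while the unpaired genes include H3, H4 and variants. Among replication-dependent H2A and H2B genes alone, the 25 paired genes had a median of 16.3 ± 1.63 in WT and 15.3 ± 0.527 in DKO and the 11 unpaired genes 14.2 ± 1.41 and 14.4 ± 0.580. The log2 ratio was then 0.19 ± 0.10 in WT and 0.09 ± 0.09 in DKO, above 0 in 5 of 6 libraries, and the groups overlapped within each genotype. This grouping was chosen after the values had been seen and is given as a description. Of the matched promoters, 23 of 23 paired and 27 of 37 unpaired core genes held CCAAT, and the octamer was held by 34.8% and 16.2%.

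The most open histone promoter was the one shared by Hist1h2ah and Hist1h2bk (Hist1h2bk at chr13:22035870-22036345, forward strand), whose starts are 302 bp apart. Its fold enrichment was 28.6, 25.1 and 31.7 in WT and 28.7, 27.3 and 26.3 in DKO. The genotypes overlapped, and the summit, at a median of 128 bp before the GENCODE start of Hist1h2bk, fell in the stretch printed above with its 3 CCAAT boxes and octamer. The difference (DKO minus WT) was 0.03 on the log2 scale, with a 95% interval of -0.10 to 0.15. The unpaired Hist1h2bm came next among single genes, with 22.7, 21.3 and 23.3 in WT and 24.7, 21.6 and 22.2 in DKO. The core genes with a summit in every library and the lowest WT means were Hist1h4k, Hist1h2af and Hist1h3d. Hist1h4k had 3.47, 3.21 and 3.21 in WT and 2.82, 3.03 and 2.62 in DKO, which did not overlap. These values did not all come from the same site. In WT replicate 3 and DKO replicate 2 the summit lay past the stop codon. In DKO replicate 3 it lay within 250 bp of the start, where no WT library had a listed summit. The gap between genotypes at Hist1h4k therefore does not compare the same site. Hist1h2af had 3.61, 4.52 and 3.25 in WT and 2.55, 3.82 and 3.03 in DKO. Hist1h3d had 4.71, 3.52 and 4.88 in WT and 4.49, 6.17 and 5.18 in DKO. The latter 2 genes overlapped between genotypes, and at these low levels the log2 differences had wide 95% intervals, from -1.43 to 0.20 for Hist1h4k, from -1.20 to 0.33 for Hist1h2af and from -0.13 to 0.79 for Hist1h3d.

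The blocks of histone genes differed in level and in make-up. The Hist1 cluster on chromosome 13 falls into a proximal block of 23 genes (chr13:21715763-22043676) and a distal block of 31 genes (chr13:23531050-23934851), and the Hist2 cluster holds 10 genes (chr3:96219865-96270132). The proximal block had a median of 16.5 ± 2.01 in WT and 15.6 ± 0.571 in DKO. The distal block, which holds 5 of the 6 replication-dependent H1 genes, had 10.9 ± 1.43 and 9.54 ± 0.943. The Hist2 cluster lay between them, at 12.5 ± 1.29 and 12.8 ± 0.219, and in DKO no library of a block overlapped another block. At the summit nearest to the start the order of the DKO means held, but this separation did not. The DKO medians were then 10.6 ± 1.25 for the proximal block, 8.06 ± 0.860 for the Hist2 cluster and 7.73 ± 0.369 for the distal block. The Hist2 cluster and the distal block overlapped. H2A and H2B genes made up 15 of 23 genes in the proximal block and 13 of 31 in the distal block, and 4 genes of the distal block had no summit and were counted at the lowest value of the list. Over H2A and H2B genes with a summit in all 6 libraries alone, the median was 17.7 ± 1.97 in WT and 16.8 ± 1.17 in DKO for 15 genes of the proximal block, and 13.1 ± 0.993 and 12.4 ± 0.840 for 11 genes of the distal block. Listed intervals covered 5.89% to 6.82% of the bases of the proximal block and 5.56% to 6.05% of the distal block, beside 2.13% to 2.43% of chromosome 13, and 14.2% to 16.9% of the Hist2 cluster, beside 1.75% to 2.08% of chromosome 3, taken over the chromosome as a whole.

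The H1 genes were each followed across the libraries. Hist1h1a (H1.1) had its highest summit at a median of 46 bp before its start, with 7.69, 7.04 and 8.18 in WT and 8.12, 6.77 and 5.61 in DKO. Hist1h1b (H1.5) had 7.80, 5.34 and 6.98 in WT and 4.12, 5.51 and 3.96 in DKO. DKO replicates 1 and 3 were below all WT libraries and DKO replicate 2 was not. H1f0, the H1.0 variant of resting and differentiated cells, had 5.91, 4.70 and 7.23 in WT and 5.73, 6.34 and 5.59 in DKO, with the genotypes overlapping. H1fx (H1.X) was near the limit of detection, at 5.26 and 4.69 in WT replicates 1 and 3, 4.199 and 5.14 in DKO replicates 1 and 2, and unlisted in the other two libraries. For Hist1h1c (H1.2) and Hist1h1e (H1.4) the highest summit within 1 kb was not at the start at all. It lay 976 bp and 871 bp downstream, past the stop codon of these short genes.

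Summits just after the stop codon were therefore examined, a pattern chosen after the values had been seen. A summit within 500 bp past the coding end was listed in all 6 libraries for 4 of 6 replication-dependent H1 genes and 15 of 61 replication-dependent core genes (24.6%). The share was 3.20% over all protein-coding genes and 3.24% over genes with 1 coding exon. Leaving out genes with another protein-coding gene's start nearby, it was 3 of 5 H1 genes and 8 of 49 core genes (16.3%), against 2.07%. Starts of non-coding genes were not considered. In 8 histone genes this summit was higher than the summit at the gene's own start in all 6 libraries, and 4 of them were Hist1h1b, Hist1h1c, Hist1h1d and Hist1h1e. The others were Hist1h3a, Hist1h4h, Hist2h3b and Hist4h4, of which Hist1h3a and Hist2h3b have another histone gene's start close by.

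At Hist1h1b the summit after the stop codon had 14.9, 12.5 and 13.9 in WT and 15.9, 12.7 and 15.9 in DKO, at a median of 383 bp past the coding end. It exceeded the start of the same gene in each library, and the log2 ratio of the summit after the stop codon to that at the start was 1.05 ± 0.16 in WT and 1.72 ± 0.44 in DKO. The genotypes overlapped in this ratio, as DKO replicate 2 was at 1.21 and WT replicate 2 at 1.23. At Hist1h1e it had 15.4, 13.7 and 15.8 in WT and 11.5, 12.2 and 13.9 in DKO, while the start had 6.08, 6.56 and 7.36 in WT and 7.36, 8.65 and 8.99 in DKO. The log2 ratio at Hist1h1e was 1.34, 1.07 and 1.10 in WT and 0.64, 0.50 and 0.63 in DKO, with no overlap between genotypes. A GENCODE start of Hist1h2be lies close to the end of Hist1h1e, so this summit cannot be given to 1 gene. Hist1h1c had 11.7, 10.3 and 13.6 after the stop codon in WT and 10.6, 12.1 and 10.6 in DKO, against 9.21, 8.43 and 10.7 and 10.3, 10.7 and 9.80 at the start. Its ratio was 0.33 ± 0.03 in WT and 0.11 ± 0.07 in DKO, which also did not overlap. Hist1h1d had 10.5, 8.55 and 9.45 in WT and 8.43, 10.6 and 8.32 in DKO after the stop codon, and its ratio of 0.49 ± 0.27 in WT overlapped that of 0.63 ± 0.04 in DKO. With 3 libraries against 3, an exact permutation test of such a ratio cannot give a two-sided p under 0.10, and none was run. The share of genes in general without overlap in such a ratio was not determined.

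**Figure D4:**
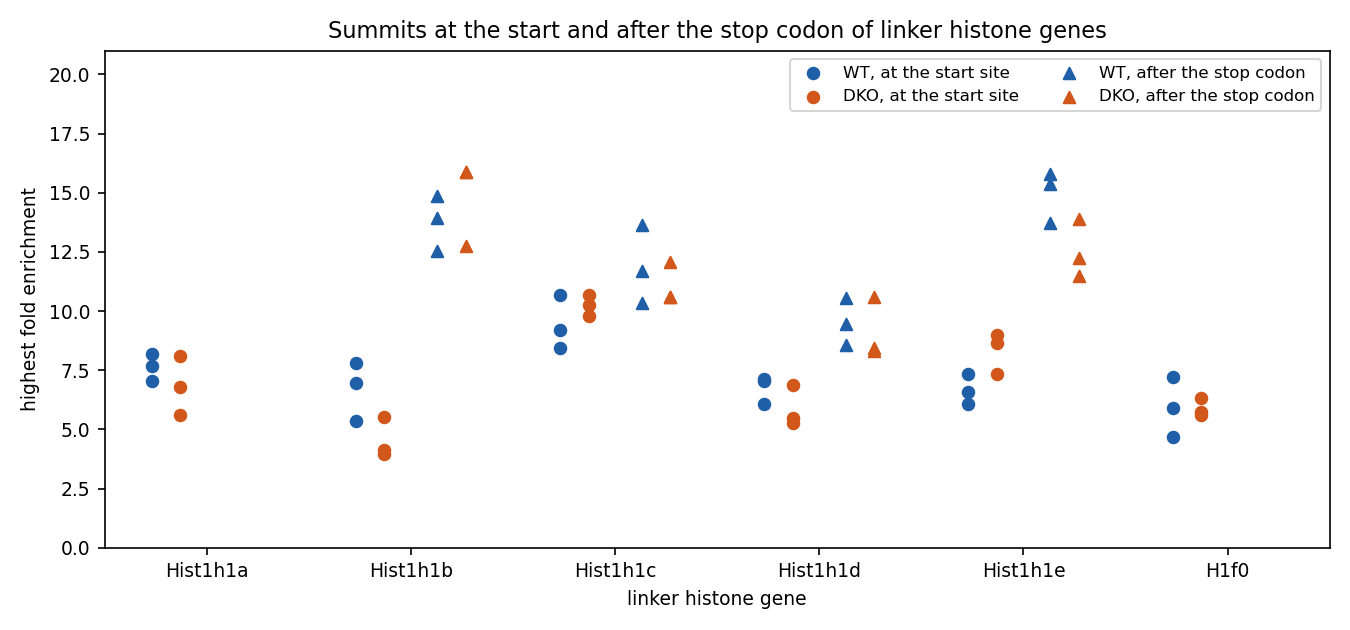
Highest fold enrichment (vertical axis) at the start site and in the 500 bp after the stop codon of replication-dependent linker histone genes (horizontal axis), with 1 point per library, shape for the site and colour for the genotype. At Hist1h1b, Hist1h1c, Hist1h1d and Hist1h1e the summit after the stop codon is above the start in each library.

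The sites of these genes were also compared in windows centred on summits over the whole genome, with limma and Benjamini-Hochberg adjustment over 179249 windows. Of the 8 H1 windows 0 were called, beside 0.0597% of all windows, and 2 had an unadjusted p under 0.05, beside 11.8% of all windows. The start of Hist1h1e differed by 0.50 log2 (DKO minus WT, limma unadjusted p = 0.014, adjusted p = 0.26) and that of Hist1h1c by 0.31 (limma unadjusted p = 0.024, adjusted p = 0.33). The start of Hist1h1b differed the other way, by -0.38 (limma adjusted p = 0.47), and the site after its stop codon by 0.25 (limma adjusted p = 0.46). The H1 starts thus did not share a direction.

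To ask whether loss of HMGN1 and HMGN2 went with a change at histone promoters, log2 fold enrichment was quantile-normalized and fitted with limma over the 14825 promoters with a summit in at least 2 libraries, 70 of them of histone genes. With Benjamini-Hochberg adjustment, 7 promoters were lower and 6 higher in DKO (0.0877% called). Without WT replicate 1, or without WT replicate 3, no promoter was called, that of Hmgn2 included. Of the histone genes 0 of 70 passed, and their smallest adjusted p was 0.341. At an unadjusted limma p under 0.05, 3 of 70 histone genes (4.29%) were found, against 12.2% of all tested promoters. The median log2 difference (DKO minus WT) over the histone genes was -0.01, with 37 negative and 33 positive, beside 0.0037 over all tested promoters. It was -0.05 over linker genes, -0.01 over core genes, -0.03 over replication-dependent genes and 0.04 over variant genes, and the sign of the linker median depended on which sites were fitted (0.17 in windows). In a bulk library, fewer cells with an open promoter and less opening per cell cannot be told apart.

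The size of a difference that the data leave room for was small for most genes. Differences ran from -0.62 to 0.37, and 68 of 70 were within 0.5 log2. The upper end is Hist1h3h, which is unlisted in WT replicate 3 and entered there at the lowest value of the list, and its difference was -0.03 without that library. The whole 95% interval lay within 0.5 log2 of 0 for 54 of 70 genes and within 1 log2 for 65, with a median distance of 0.264 from the estimate to either end. After quantile normalization, the 3 DKO values lay below the 3 WT values for 8 of 70 genes (11.4%, 7 promoters), beside 8.05% of all tested promoters. They lay above for 5 of 70 (7.14%, 3 promoters), beside 8.55%. These shares are near those of promoters in general.

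**Figure D5:**
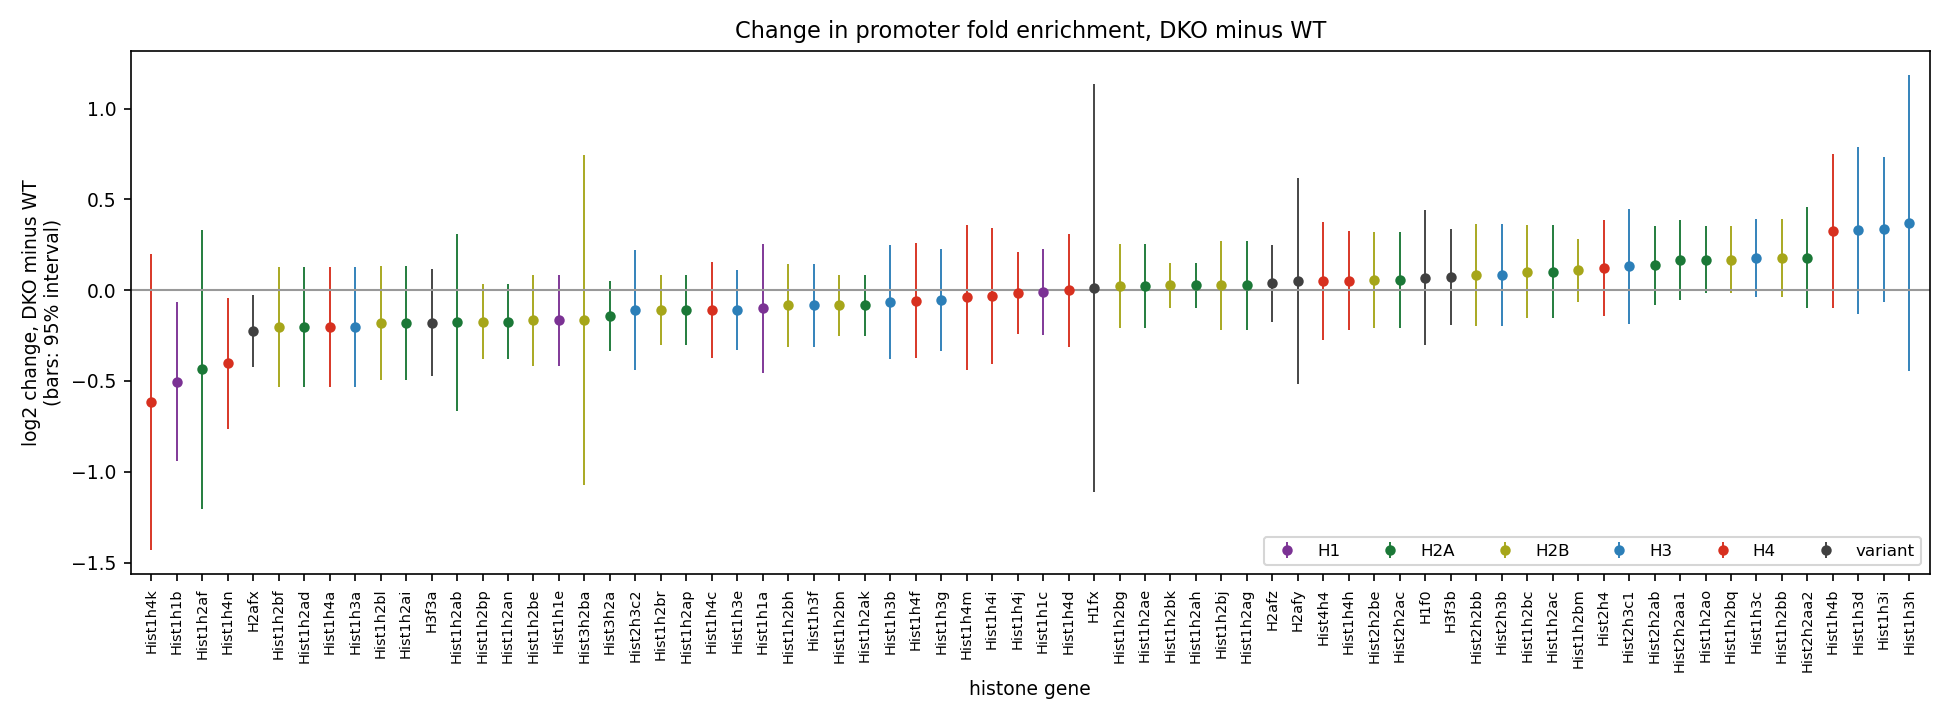
Log2 difference in promoter fold enrichment, DKO minus WT (vertical axis), of the 70 tested histone genes in order of size (horizontal axis), with bars for the 95% interval and colour for the histone class. Most points lie within 0.5 log2 of 0, 37 below it and 33 above, and none passed the adjusted threshold.

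The genes with the smallest p were H2afx, Hist1h1b and Hist1h4n, and none is called. H2afx, which encodes the H2A.X of DNA double-strand break signalling, had 24.5, 18.1 and 22.7 in WT and 17.3, 18.5 and 16.2 in DKO. The deposited values overlapped through DKO replicate 2, and the normalized values did not. Its difference was -0.23 ± 0.09 (SE, limma unadjusted p = 0.028, adjusted p = 0.34), and at the summit nearest to the start instead of the highest it was 0.09. Hist1h1b differed by -0.50 ± 0.20 (SE, limma unadjusted p = 0.028, adjusted p = 0.34), with a 95% interval of -0.94 to -0.06, the largest negative difference of a linker gene. Hist1h4n had 8.05, 8.70 and 8.16 in WT and 6.07, 5.73 and 6.10 in DKO, without overlap, and differed by -0.40 ± 0.17 (SE, limma unadjusted p = 0.031, adjusted p = 0.35). Its promoter is nearly a copy of that of Hist1h4m, which had 12.2, 8.56 and 8.02 in WT and 9.26, 9.12 and 7.63 in DKO and differed by -0.04. Reads of such copies could be split between them.

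The next genes by p were shared promoters and H3 genes. The Hist1h2bq and Hist1h2ao pair had 17.2, 14.4 and 18.3 in WT and 17.4, 17.5 and 17.3 in DKO, a difference of 0.17 (limma adjusted p = 0.45). Its near-copy, the Hist1h2ap and Hist1h2br pair, differed by -0.11, so the pairs with the same sequence went opposite ways by small amounts. Hist1h3i had 4.49, 6.07 and 6.48 in WT and 6.87, 7.41 and 6.17 in DKO, a difference of 0.34 (limma adjusted p = 0.50). The Hist1h2bp and Hist1h2an pair had 22.7, 19.8 and 21.02 in WT and 18.2, 19.3 and 15.4 in DKO, a difference of -0.17 (limma adjusted p = 0.50). Hist1h3c and Hist1h2bb share their highest summit, at a median of 961 bp before the start of Hist1h3c, and differed there by 0.18 (limma adjusted p = 0.51). At the summit nearest to each start the sign turned, to -0.24 for Hist1h3c and -0.74 for Hist1h2bb (limma adjusted p = 0.61 and 0.71). Hist1h2ab, whose values of 4.34, 4.39 and 4.91 in WT and 3.68, 4.01 and 3.83 in DKO did not overlap, differed by -0.18 (limma adjusted p = 0.80).

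The remaining linker and variant genes had larger p. Hist1h1a differed by -0.10 and H1f0 by 0.07. At their highest summits, which lie past the stop codon, Hist1h1c differed by -0.01 and Hist1h1e by -0.17. At the summit nearest to the start the sign turned, to 0.21 for Hist1h1c (limma adjusted p = 0.60) and 0.53 for Hist1h1e (limma adjusted p = 0.54), and within 500 bp the differences were 0.19 and 0.37. H1fx differed by 0.01 with a 95% interval of -1.11 to 1.14, which sets no useful limit. At the RefSeq start of Hist1h1d the difference was -0.15 ± 0.18 (SE, limma adjusted p = 0.79). H3f3a and H3f3b encode the same replacement histone, H3.3. H3f3a had 14.2, 14.9 and 15.6 in WT and 10.1, 13.6 and 13.6 in DKO, a difference of -0.18, and H3f3b had 14.02, 11.7 and 12.4 in WT and 11.7, 13.6 and 12.2 in DKO, a difference of 0.07. The deposited values of H3f3a did not overlap, but its normalized values did, and without DKO replicate 1 its difference was -0.03. The deposited values of H3f3b overlapped. H2afz, which encodes the promoter-associated H2A.Z, had 14.1, 12.2 and 15.5 in WT and 13.7, 13.4 and 12.96 in DKO and differed by 0.04. H2afy, which encodes macroH2A1, varied widely between WT libraries, with 3.86, 7.47 and 10.2 in WT and 6.51, 7.53 and 5.84 in DKO, and differed by 0.05 (95% interval -0.52 to 0.62). Of the genes listed in 5 libraries, Hist3h2ba had 3.50, 3.70 and 4.70 in WT and 5.67 and 4.59 in DKO replicates 2 and 3, and Hist1h3h had 3.47 and 3.28 in WT replicates 1 and 2 and 3.33, 3.41 and 3.46 in DKO. A missing library entered the fit at the lowest fold enrichment of its list, between 1.49 and 1.57, which applies to H1fx, Hist3h2ba and Hist1h3h.

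Genes that act with histones were described in the same fit, in which 0.0877% of all promoters were called and 12.2% had an unadjusted p under 0.05. Of 26 genes for histone transcription and mRNA ends, 0 of 26 tested were called and 4 had an unadjusted limma p under 0.05, with a median difference of -0.04. The smallest p were those of Nfyc (-0.37, limma adjusted p = 0.26) and Nfyb (-0.26, limma adjusted p = 0.31), which encode subunits of the CCAAT-binding NF-Y. The gene of the remaining subunit, Nfya, differed by only -0.03 (limma adjusted p = 0.95). Nfyc had 23.7, 16.9 and 25.4 in WT and 16.8, 13.8 and 16.9 in DKO, and DKO replicate 3 alone reached the lowest WT value. Of 29 histone chaperone genes 0 were called and 4 had an unadjusted p under 0.05, with a median of 0.05, led by Daxx (0.30, limma adjusted p = 0.30), an H3.3 chaperone, and Asf1b (0.21, limma adjusted p = 0.31), an H3 and H4 chaperone. Of 6 tested variant genes outside the rule 0 were called and 1 had an unadjusted p under 0.05. The macroH2A2 gene H2afy2 had 10.3, 8.49 and 10.4 in WT and 5.21, 6.90 and 5.87 in DKO, without overlap, a difference of -0.63 (limma unadjusted p = 0.00123, adjusted p = 0.18), and H2afj differed by -0.23 (limma adjusted p = 0.50). Of 9 HMG-type architectural genes, Hmgn2 alone was called.

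The targeted genes checked the labels. Hmgn2 had 7.89, 7.53 and 9.45 in WT while none was listed for it in DKO (limma adjusted p = 0.00238), whereas Hmgn1 kept a summit of 14.9, 16.3 and 14.4 in DKO, beside 12.6, 13.9 and 20.1 in WT, so its promoter does not check the loss. Of 15 stromal marker genes 13 had a summit in all 6 libraries. Of the 5 adipocyte genes Cidec, Lep and Plin1 had none, while Fabp4 was listed in all 6, at 15.9 to 17.4 in WT and 12.9 to 14.2 in DKO. Of the 4 muscle genes Myf5 and Myod1 had none and Des was listed in 4 libraries. Of 6 leukocyte markers 3 had a summit in all 6, with a summed fold enrichment of 18.9 to 24.8 in WT and 21.3 to 29.4 in DKO, and of 4 endothelial markers 3 did, with 33.3 to 42.1 and 33.5 to 40.3. Single markers went opposite ways. Itgam (3.28 to 5.95) and Cdh5 (3.91 to 7.09) were listed in the 3 DKO libraries and in no WT library, and Adgre1 in 2 DKO libraries alone, whereas Lyz2 differed by -0.32 and Pecam1 by -0.37. None of these 5 markers was called (limma adjusted p from 0.12 for Cdh5 to 0.55 for Adgre1), and they were named after their values were seen. Their part in the values of the histone genes was not tested. Each list held between 299433 and 299620 summits. DKO replicate 3 had the lowest usual background pileup, 2.05 against 2.41 to 2.58 in the others.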

How the data were processed

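Peak lists from ATAC-seq of preadipocytes, 3 libraries from WT and 3 from DKO mice, were used, grouped and numbered by the sample titles. Per the submitters' processing notes, bcl2fastq 2.17, cutadapt 1.18, Bowtie2 2.3.4.3 and MACS2 (version not given in the sources used here) were run with the genome build mm10. Duplicate and mitochondrial reads were removed. The authors called peaks in each library separately, and the lists are limited to 300000 lines by p, so that the number of summits cannot be compared. The study gives default MACS2 settings, which differ from the p limit in the names of the lists. How reads with several matches were placed is not given in the sources used here, and 15 of the 74 genes have over 50% of their 50-base stretches elsewhere in the genome. The deposited fold enrichment is a ratio of pileup to local background, so a level is relative to its own library. The deposited p and q are −log10 values, and the deposited score was not used. Read totals were not analysed here.

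A gene's value was the highest fold enrichment of a summit within 1 kb of a GENCODE M21 start site, and its rank came from the −log10 p that the authors deposited. Genes with a summit in at least 2 libraries entered the fit, with a missing library at the lowest value of its list. Log2 values were quantile-normalized and compared (DKO minus WT, two-sided) with limma 3.58.1 in R 4.3.3 with a trend, Benjamini-Hochberg adjustment over all tested promoters and a threshold of 0.05. The fit was tested on simulated data. The members, lists and tests were chosen with earlier results of these data known. Genes named were all linker and variant genes, the 3 highest and 3 lowest core genes, the 10 smallest p, the 5 largest differences without overlap, those listed in some libraries only, and, of each pathway list, those called or otherwise the 2 smallest p. Others, marker genes among them, were chosen after their values were seen. Alternatives were other values, distances, scalings, filters and list lengths, a replicate block and leaving out each replicate. RefSeq start sites, leaving out repeated genes, summits within 250 bp of a start, and the alternatives for paired genes were added after seeing the data.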

Additional observations from a re-analysis of the deposited data

How the results depend on the processing

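No histone gene was called lower or higher under any of the alternatives, and none of the 28 named genes crossed the threshold in 546 values. The lowest adjusted p among them was 0.169, and 38 of these values had the opposite sign. Counts over all promoters, 7 lower and 6 higher, did depend on the settings. They were 22 lower and 17 higher with −log10 p in place of fold enrichment, 19 and 13 with summit pileup, 4 and 2 within 500 bp, and 45 and 48 without the trend. Of the 179249 windows over the whole genome 65 were lower and 42 higher, which are not counts of promoters. With the nearest summit 17 promoters were lower, and with the 50000 best summits 16 were lower. Without scaling 1 was higher, and with a summit required in all 6 libraries 3 were higher. Leaving out 1 replicate gave between 0 and 8 lower and between 0 and 3 higher. Without WT replicate 1 or WT replicate 3 none was called either way, and without DKO replicate 1 none was higher. The numbers did not pair the samples, as same-numbered libraries deviated together with correlations of 0.04, 0.044 and -0.0091, and the fit with a replicate block called 6 lower and 1 higher. The median difference over histone genes was -0.093 without scaling, 0.039 when the whole list was normalized and 0.041 in windows. Beside these, the median difference was -0.076 and 0.055 over all tested promoters and 0.010 over all windows. Over core genes it was -0.086, 0.039 and 0.040 under the same settings and -0.056 within 500 bp, with -0.048 to 0.021 on leaving out a replicate, and over replication-dependent genes -0.11, 0.038 and 0.040. Over linker genes it was -0.17 with the 50000 best summits and 0.17 in windows. With the 50000 best summits 11 histone genes had a summit in some libraries only and 14 in none. The log2 ratio of linker to core stayed negative under each setting run. In WT it was -1.73 by −log10 p, -0.73 at the nearest summit, -0.98 within 500 bp, -1.80 with the 50000 best summits, -0.89 within 250 bp, -0.84 over genes with a summit in all 6 libraries and -0.94 with each promoter once. In DKO it was -2.08, -0.69, -1.11, -1.91, -0.94 and -0.90 under the first 6 of these. The ratio of replication-dependent to variant genes was -0.13 by −log10 p, -0.26 within 500 bp, -0.26 within 250 bp and -0.21 with each promoter once in WT, and -0.45 at the nearest summit, -0.28 within 500 bp and -0.32 within 250 bp in DKO. The mean ratio of paired to unpaired core genes stayed positive. It was 0.65 in WT and 0.84 in DKO by −log10 p, 0.50 and 0.48 by pileup, 0.91 and 0.85 at the nearest summit, 0.81 and 0.85 within 500 bp, 0.80 and 0.87 within 250 bp and 0.46 in both without repeated promoters, with 0.53 in WT over genes with a summit in all 6 libraries, and 0.19 and 0.093 in WT and DKO among replication-dependent H2A and H2B genes alone. The cause of these shifts was not tested. The limit of the list differs between libraries, so that weak promoters such as H1fx are known least.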
